A study of Mus musculus with 12 samples.

Results

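The 40 Wnt pathway genes described here were chosen by name from textbook knowledge of the pathway, as genes listed in the deposited tables. Earlier results of these data were known when they were chosen. All 40 were found among the 22911 genes. They comprised 6 ligands, 3 genes that process ligands, 9 receptors, 4 genes of the R-spondin axis, 4 secreted antagonists, 5 genes of the destruction complex with β-catenin, 4 TCF/LEF transcription factors, and 5 feedback and target genes. RNA-Seq was performed on mouse epiblast-like cells (EpiLCs), which resemble the early post-implantation epiblast, 3 libraries for each of 4 genotypes. The controls were female Kdm5c fl/fl and male Kdm5c flY cells (labelled Smcx wild type, Smcx being an older name of Kdm5c), whose floxed allele was intact. The knockouts were female Kdm5c Δ/Δ and male Kdm5c ΔY cells (labelled Smcx knockout), in which Cre had removed exons that encode part of the catalytic JmjC domain of this X-linked histone H3K4 demethylase, so that all cells of all 4 groups carried the engineered allele in either form. The labels give the strain as C57BL/6J, whereas the methods of the study describe the floxed mice as kept on a mixed background. Each genotype was represented by 3 independent embryonic stem cell (ESC) lines. The lines were derived on feeder fibroblasts and then grown for 4 passages in 2i medium in gelatin-coated dishes. This medium holds the GSK3 inhibitor CHIR99021, a MEK inhibitor and LIF. The cells were then cultured for 48 h with FGF2 and Activin A on fibronectin. The GSK3 inhibitor turns the Wnt pathway on and was a component of the medium of all 4 groups before, and of none during, these 48 h. Female and male cells came from different lines, so that sex and line cannot be told apart in comparisons between the sexes. Knockout and control cells also came from different lines, so that differences between lines enter those comparisons too.

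Wnt ligands are lipid-modified by Porcn, escorted to the surface by Wls and inactivated by the deacylase Notum. They bind Frizzled receptors with the co-receptors Lrp5 and Lrp6, which stops the destruction complex of Axin, Apc and Gsk3 from marking β-catenin (Ctnnb1) for degradation, and β-catenin then turns TCF/LEF factors into activators of target genes. Several targets feed back on the pathway. Axin2, Nkd1, Nkd2, Notum, Rnf43, Znrf3 and Dkk1 dampen it, while Sp5 and Sp8 are zinc finger proteins that act at Wnt target genes. In pluripotent cells Tcf7l1 represses naive genes such as Esrrb, and Wnt signalling relieves that repression. In the epiblast, Wnt signalling induces T (Brachyury) and the primitive streak.

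TCF/LEF factors bind DNA through a core motif, CTTTGA, which was searched on both strands in the 300 bases from 250 before to 50 after gene starts (RefSeq, GRCm38.p6). Entries were present for 25 of the 40 genes, and 9 of these 25 (36.0%) held the motif in at least 1 window, against 18.2% of all 27025 genes with an entry. A gene can have several windows, and the motif was in 9 of the 37 windows of these 25 genes (24.3%), against 5257 of all 32851 windows. No other motif was searched. The stretches of Sp5, Lef1, Dkk1, Sp8 and Wnt5b are shown because these genes are a transcription factor of the pathway, its feedback or target genes, or a ligand, and because their levels are described below. They are printed 5′ to 3′ on the strand of the gene, with the motif or its reverse complement in capitals.
Sp5, -204 from the start, chr2:70474707-70474736: gacactttgtcaCTTTGAgcactgccttgg
Sp5, -104 from the start, chr2:70474807-70474836: cggcaaggccccCTTTGAtcaggaaaatcc
Lef1, -180 from the start, chr3:131156102-131156131: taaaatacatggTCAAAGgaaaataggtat
Lef1, -120 from the start, chr3:131156162-131156191: cattgtctgttcTCAAAGtcaggtcttgca
Dkk1, -117 from the start, chr19:30549596-30549625: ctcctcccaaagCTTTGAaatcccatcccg
Dkk1, -174 from the start, chr19:30549653-30549682: gaggggagagtgTCAAAGtcctccctgctt
Sp8, -50 from the start, chr12:118847171-118847200: ctccgcggcactTCAAAGccggagagggag
Wnt5b, -71 from the start, chr6:119449440-119449469: gagtaagtctctCTTTGAtctgctccctgt
Sp5, Lef1 and Dkk1 each held 2 matches, and Sp8 and Wnt5b held 1 each. The other genes with a match were Fzd1, Wnt11, Gsk3a and Gsk3b. A match of these letters is a description of the sequence and not evidence of binding. Of the 9 genes with the motif, 2 were higher, 3 lower and 4 without a call in the female comparison below, and of the 16 without it, 4 were higher, 9 lower and 3 without a call.

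The deposited tables give the mean normalized count of each genotype, that is, reads divided by the size factor of the library and averaged. The reads of the 3 libraries behind each mean were worked out from these means, and the libraries are called A, B and C within a genotype by falling size factor. Values of single libraries below are normalized counts in the order A, B, C. They rest on 5354215 to 10863314 reads per library over the 22808 genes solved in all 12 libraries. The Kdm5c level was 2315 to 2429 in female control, 1406 to 1505 in female knockout, 2110 to 2371 in male control and 1897 to 1976 in male knockout libraries, counted over the whole gene, including exons outside the deletion. It was lower in female knockout cells (log2 -0.70, SE 0.05, limma adjusted p = 4.5e-09) and not called in male knockout cells (log2 -0.20, SE 0.11, adjusted p = 0.27). Reads of 4 Y-linked genes (Ddx3y, Eif2s3y, Kdm5d and Uty) numbered 1554 to 3092 in male and 11 to 23 in female libraries, and Xist was at 1245 to 1406 in female control, 238 to 290 in female knockout and 184 to 496 in male libraries. Male control B and male knockout A stood apart. The chi-square per gene between 2 libraries of a genotype was 1.97 to 4.55 among female libraries, 2.31 between male control A and C, and 2.61 between male knockout B and C, but 17.4 to 17.8 between male control B and the other male controls and 26.9 to 29.5 between male knockout A and the other male knockouts. Among the 40 Wnt genes, male knockout A lay more than 2-fold from the log2 mean of the other male knockouts for 13 genes. Male control B lay as far from the log2 mean of the other male controls for 6. Male results are therefore also given without these 2 libraries, an alternative chosen after seeing the data.

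Epiblast markers such as Pou5f1 (2750 to 4402) and Fgf5 (124 to 404) were present in all libraries, although the summed level of 11 epiblast markers also differed between groups (16200 to 16350 in female control, 24020 to 24370 in female knockout, 18590 to 28050 in male control and 13670 to 18040 in male knockout libraries). Of 15 genes listed as silent outside other tissues, 12 were under 5 in all libraries. The sum of the 15, of which Myh6 made up 65.9%, was 105 to 117, 93.0 to 124, 133 to 172.5 and 57.6 to 70.3 in the same order of groups. Marker lists of other cell types moved with the groups. The summed level of 12 primitive and visceral endoderm genes, of which Cubn made up 45.0%, was 554 to 617 in female control, 6805 to 7020 in female knockout, 2998 to 5517 in male control, and 960, 6703 and 6824 in male knockout libraries. The sum of 10 feeder fibroblast genes, of which Col1a1 made up 49.0%, was 2314 to 2365, 780 to 835, 652 to 883 and 4297 to 4875 in the same order of groups, with Lum under 5 throughout. Thy1, another gene of this list, had group means of 67.1, 56.8, 69.1 and 58.1 in that order. The sum of 10 naive ESC genes was 1167 to 1230, 3362 to 3528, 1528 to 2745 and 4550 to 7734. By the test described below, 12 of 12 endoderm, 8 of 10 naive and 5 of 11 epiblast genes were higher and 4 of 10 feeder and 5 of 11 epiblast genes lower in female knockout cells. Over all genes, 25.4% were higher and 24.7% lower. In male knockout cells 5 of 10 feeder and 6 of 10 naive genes were higher, and 1 of 12 endoderm and 4 of 11 epiblast genes lower. The male shares over all genes were 4.21% higher and 3.59% lower. Without the 2 libraries that stood apart, the male counts became 8 endoderm genes higher and 3 lower (median log2 change 1.28 against 0.14), 10 of 10 naive genes higher, 5 feeder genes higher and 2 lower, and 2 epiblast genes higher and 9 lower. The shares over all genes rose too, to 17.7% higher and 25.3% lower. Primitive streak and mesoderm genes summed to 347 to 382, 464 to 501, 272 to 288 and 484 to 1304, and early neural genes to 2372 to 2617, 1794 to 1849, 1232 to 1466 and 975 to 2233. Hand1 made up 39.4% of the streak sum and Nes 88.5% of the neural sum. In female knockout cells 5 of 10 streak genes were higher and 2 lower (median log2 change 0.93), and 2 of 6 neural genes were lower. In male knockout cells 1 streak gene was higher and no neural gene was called. This became 5 streak genes higher and 1 lower, and 4 neural genes lower, without the 2 libraries that stood apart. The streak and neural counts are to be read against the same shares of all genes. These marker levels are given beside the Wnt genes because they moved with the same groups, and their part in the results was not tested. In bulk RNA, fewer cells of a type and less RNA per cell cannot be told apart.

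**Figure D1:**
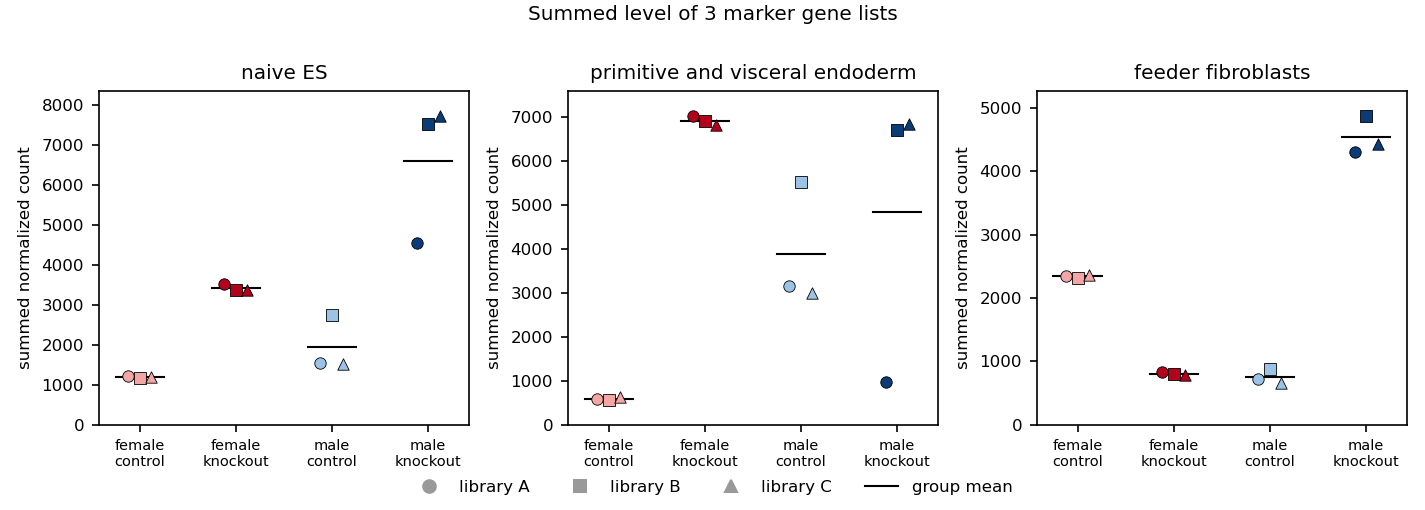
Summed normalized counts (vertical axis, from 0) of marker genes of naive ESCs, of primitive and visceral endoderm and of feeder fibroblasts in each of the 12 libraries, by genotype, with a bar at the group mean. Endoderm genes summed to 554 to 617 in female control and 6805 to 7020 in female knockout libraries, and male knockout library A, at 960, lay apart from B and C.

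The question of the comparisons was how loss of Kdm5c altered expression in female and in male EpiLCs. Between female Kdm5c Δ/Δ and Kdm5c fl/fl cells, 29 of the 40 Wnt genes (72.5%) differed at an adjusted p under 0.05 (limma on log2 of the normalized count plus 1, Benjamini-Hochberg adjustment over all genes tested), against 50.1% of all 19572 genes tested. Of these, 11 were higher in the knockout, a direction taken by 25.4% of all genes, and 18 were lower, against 24.7%. When genes with a mean below 10 were left out, the shares were 31 of 38 Wnt genes (81.6%) and 65.9% of all genes. Groups did not overlap for 30 of the 40 genes, against 54.8% of all genes. The median log2 change was -0.17 over the 40 genes and 0.00 over all genes.

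Male Kdm5c ΔY and Kdm5c flY cells differed for 5 Wnt genes (12.5%), against 7.80% of all 21872 genes tested, and for 5 of 37 against 12.3% when genes with a mean below 10 were left out, which is close to the background. Notum, Sfrp1 and Wnt6 were higher, against 4.21% of all genes, and Fzd4 and Tcf7 were lower, against 3.59%. Groups did not overlap for 14 Wnt genes and for 26.5% of all genes. The median log2 change was 0.22 (0.15 without Wnt3a, which had 0 reads in all male controls) and -0.16 over all genes, or 0.15 and 0.00 when genes with a mean below 10 were left out. None of the 5 calls held in all 6 fits that left out 1 library. Without male control B and male knockout A, 22 Wnt genes differed, while the count over all genes rose from 1705 to 9352 (42.9%). Of the 22, 12 were higher, against 17.7% of all genes, and 10 lower, against 25.3%.

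The male change minus the female change, the interaction of sex and genotype over all 12 libraries, passed the same threshold for 15 Wnt genes (37.5%), against 21.2% of all 22014 genes tested (17 of 38 and 33.8% without genes of a mean below 10). The male change lay above the female change for 11 of them, against 10.6% of all genes, and below it for 4, against 10.7%. The genes were Wnt5b, Wnt6, Wnt8a, Wls, Fzd1, Fzd2, Fzd8, Lrp5, Axin2, Nkd1 and Sp5 on the one side and Lgr5, Sfrp2, Tcf7 and Tcf7l2 on the other. In fits that left out 1 of the 12 libraries, Wnt6, Wls, Fzd1, Fzd2, Lrp5, Lgr5 and Sp5 kept the call each time, and the other 8 lost it in 5 to 10 of 12 fits. Wnt6 was the 1 gene called in opposite directions in females and males, 4 genes (Notum, Sfrp1, Fzd4 and Tcf7) were called in the same direction, 24 were called in females alone, which does not show that the sexes differ, and 11 had no call in either sex.

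**Figure D2:**
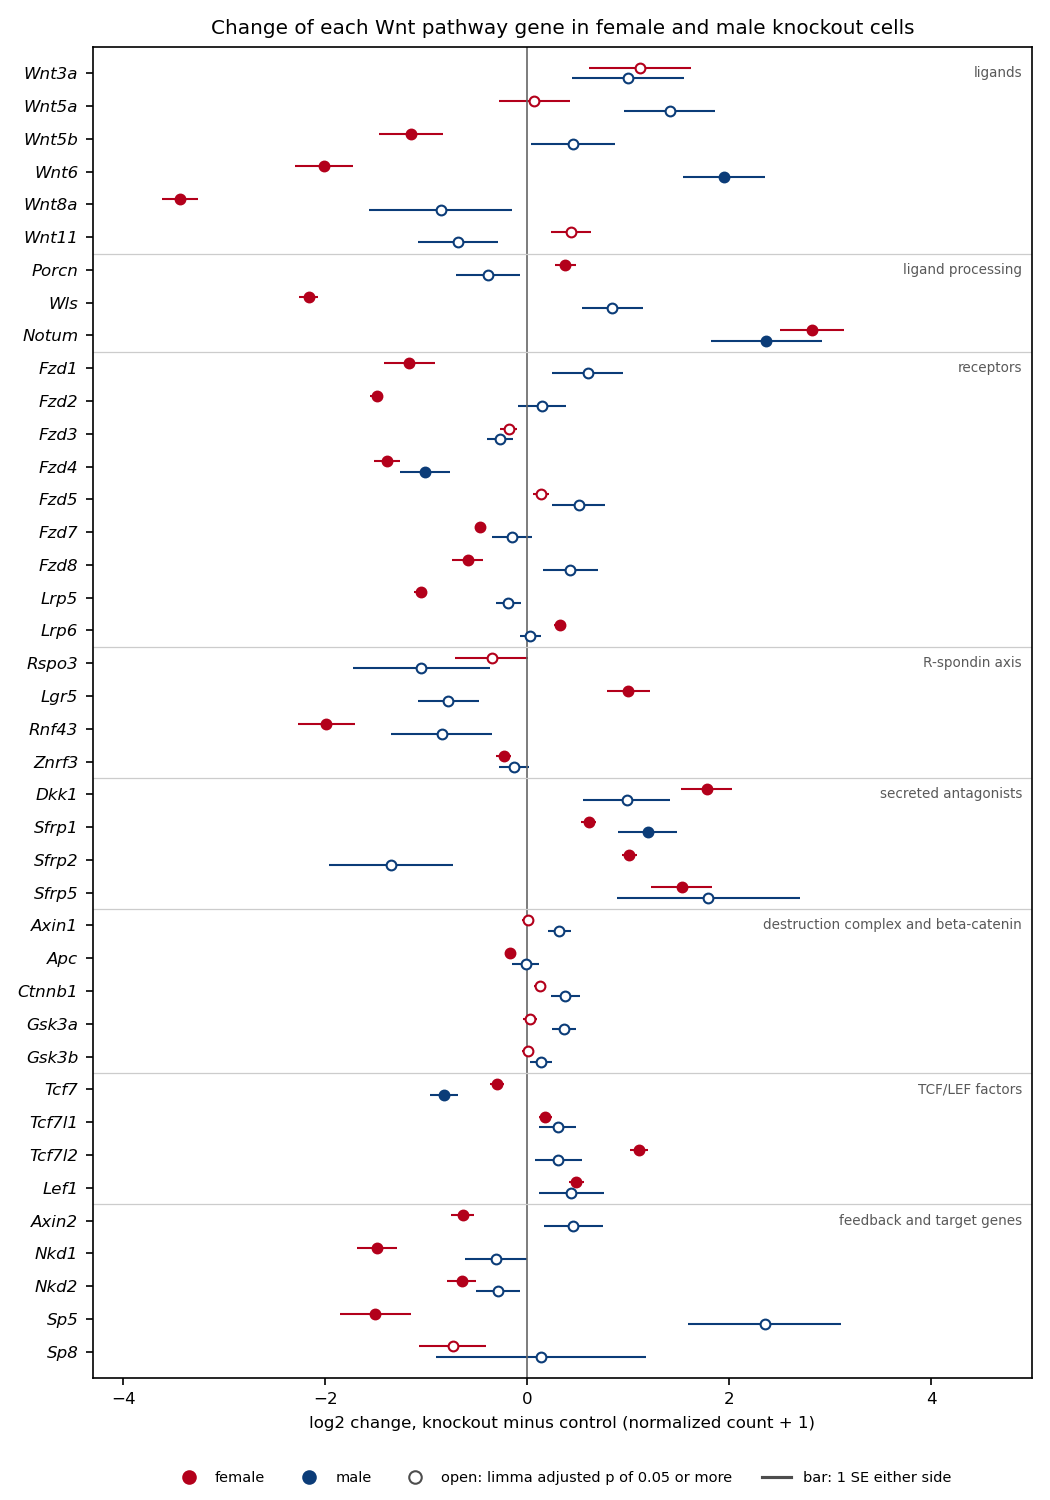
Log2 change of each of the 40 Wnt pathway genes (knockout minus control, normalized count plus 1) in female (red) and male (blue) cells, ordered by role. Bars are 1 SE either side, and filled points passed a limma adjusted p of 0.05. Filled points number 29 in females and 5 in males, and Wnt6 has filled points on both sides of 0.

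The ligands were lower or not called in female knockout cells, with 3 of 6 lower and 0 higher. The share called (50.0%) was close to that of all genes (50.1%, with 24.7% lower). Wnt8a, a ligand of the posterior epiblast, had 359, 395 and 329 in female control and 21.9, 41.2 and 37.4 in female knockout libraries. It was lower 10.8-fold (log2 change -3.44, SE 0.18, adjusted p = 2.3e-11). Male controls were at 79.8, 64.1 and 73.3 and male knockouts at 167, 21.3 and 16.6, so that knockout A lay above and knockouts B and C below all controls. The male change had no call (log2 -0.86, SE 0.71) but was -1.97 without the 2 libraries that stood apart (SE 0.23, limma adjusted p = 0.0011). Among the ligands listed, Wnt8a had the highest level per kilobase of exon in female controls (207 ± 18.98 SD normalized counts per kb), followed by Wnt6 at 19.1 and Wnt5b at 12.3.

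Wnt6 (chr1:74818466-74831893, mm9, plus strand) was the ligand with opposite changes. Female controls had 29.2, 41.7 and 47.8 and female knockouts 10.2, 8.4 and 8.1. In male cells the order was turned, with 10.97, 9.3 and 11.5 in control and 26.8, 57.8 and 53.8 in knockout libraries. Neither pair of groups overlapped. The level was thus 4.04-fold lower in female knockout (log2 -2.01, SE 0.29, limma adjusted p = 1.2e-05) and 3.87-fold higher in male knockout cells (log2 1.95, SE 0.41, adjusted p = 0.022). The changes differed by 3.97 on the log2 scale (SE 0.48, adjusted p = 7.5e-05), in the direction in which the feeder fibroblast sum also moved.

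Wnt5b was lower in female knockout cells (log2 -1.15, SE 0.32, limma adjusted p = 0.0055), at 36.2, 23.1 and 37.8 in control against 8.6, 19.4 and 15.2. Wnt5a, which signals mostly without β-catenin, was at 7.0 to 13.2 in both female groups and in male controls and at 43.8, 24.3 and 17.6 in male knockouts. The male Wnt5a groups did not overlap, but the change was not called (log2 1.41, SE 0.45, adjusted p = 0.089). Wnt11 lay between 17.9 and 65.8 in all libraries with no call in either sex. Wnt3a was close to the limit of detection, with 12 reads in the female knockouts, 4 in the female controls and in the male knockouts, and 0 in the male controls, where a count of 0 allows a normalized count of up to 2.99, 3.10 and 4.31, so no fold change is given. That limit covers counting error only.

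Wls, the carrier that takes Wnt proteins to the surface, followed the pattern of Wnt6 in females (chr3:159502701-159598797, mm9, plus strand). Its level was 404, 359 and 360 in female control and 79.9, 86.7 and 81.8 in female knockout libraries, a 4.48-fold lower level (log2 -2.16, SE 0.10, limma adjusted p = 2.8e-12). In male cells it was 160, 141 and 196 in control and 512, 233 and 214 in knockout libraries, without overlap but also without a call (log2 0.84, SE 0.30, adjusted p = 0.12). The difference between the sexes was 3.01 (SE 0.35, adjusted p = 5.5e-05), called with every library left out in turn.

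Notum, a feedback inhibitor that removes the lipid from Wnt proteins, rose in both sexes. Female controls had 10.1, 5.5 and 4.4 and female knockouts 59.6, 51.4 and 42.4. Male controls had 2.0, 9.3 and 2.9 and male knockouts 27.6, 23.3 and 22.8. All knockouts lay above all controls, by 7.06-fold in females (log2 2.82, SE 0.32, limma adjusted p = 6.0e-07) and 5.17-fold in males (log2 2.37, SE 0.55, adjusted p = 0.033). Of the exon bases of Notum, 38.1% also lie in exons of genes on the opposite strand, 4732444A12Rik and Gm11768, and the sources used here do not state whether counting used the strand. Porcn, the acyltransferase that lipidates Wnt proteins and an X-linked gene (chrX:7770974-7783651, mm9, minus strand), was at 288, 228 and 234 in female control and 367, 325 and 283 in female knockout libraries. The female Porcn change was called (log2 0.38, SE 0.10, adjusted p = 0.0052) although the groups overlapped, and it lost the call without female knockout A (adjusted p = 0.053). In males Porcn had no call and was lower without the 2 libraries that stood apart (log2 -0.36, SE 0.08, adjusted p = 0.011).

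Receptors were mostly lower in female knockout cells, with 6 of 9 lower and Lrp6 higher. The largest of these changes was that of Fzd2 (chr11:102465745-102469372, mm9, plus strand), from 978, 939.9 and 1074 to 368, 349 and 345 (log2 -1.49, SE 0.07, limma adjusted p = 3.4e-12). Male Fzd2 levels were 384, 620.3 and 409.6 in control and 719, 432 and 426 in knockout libraries and overlapped. Fzd4, a receptor for Norrin as well as Wnt, was the receptor with the same call in both sexes. It fell from 165, 146 and 146 to 61.9, 55.6 and 55.6 in females (log2 -1.38, SE 0.13, adjusted p = 6.0e-08) and from 90.7, 123 and 79.0 to 51.9, 42.6 and 47.6 in males (log2 -1.01, SE 0.25, adjusted p = 0.039).

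Fzd1 was lower in female knockouts (log2 -1.17, SE 0.25), at 41.2, 54.9 and 41.1 against 23.5, 22.7 and 14.2. It was not called in males, at 30.9, 23.8 and 17.2 against 44.6, 33.4 and 31.0. The co-receptor Lrp5 (chr19:3584825-3686564, mm9, minus strand) had 715, 724 and 763 in female control against 362, 347 and 349.7 (log2 -1.05, SE 0.06, limma adjusted p = 1.9e-10), while male levels were 472 to 631 in both groups. Lrp6, the co-receptor with the stronger canonical activity, was slightly higher instead, at 1251, 1164 and 1231 against 1466, 1614 and 1492 (log2 0.33, SE 0.06, adjusted p = 0.00012). The 2 co-receptors therefore changed in opposite directions in females, and neither was called in males.

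Fzd7, the receptor with the highest level per kilobase in female controls (395 ± 7.4 SD), was lower by a smaller step (1865 to 1935 against 1335 to 1407, log2 -0.47, SE 0.05), and Fzd8 likewise (104 to 126 against 59.8 to 87.8, log2 -0.59, SE 0.15). Fzd3 and Fzd5 had no call in either sex, although Fzd5 was at 1179 and 1086 in male knockouts B and C against 549, 805 and 568 in male controls. Without the 2 libraries that stood apart, the male Fzd5 change was 1.02 (SE 0.07, limma adjusted p = 0.00012), while Fzd3 (-0.41, SE 0.08) and Fzd7 (-0.21, SE 0.05) were lower. Differences between the sexes were called for Fzd1 (1.77, SE 0.42), Fzd2 (1.64, SE 0.27), Fzd8 (1.01, SE 0.33) and Lrp5 (0.87, SE 0.13), with adjusted p-values of 0.0089, 0.00085, 0.041 and 0.00037.

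In the R-spondin axis, the receptor and the ligase that it controls moved in opposite directions in female cells. Lgr5, a receptor for R-spondins and a Wnt target in stem cells of the gut, was at 32.2, 27.4 and 30.02 in control and 47.0, 77.4 and 61.6 in knockout libraries (log2 1.00, SE 0.21, limma adjusted p = 0.00064). Male levels were 61.8, 45.5 and 54.6 in control and 39.0, 31.4 and 23.8 in knockout libraries, without overlap and without a call (log2 -0.78, SE 0.30, adjusted p = 0.15). The difference of the Lgr5 changes was -1.78 (SE 0.36, adjusted p = 0.0029). Rnf43, a ubiquitin ligase that removes Frizzled receptors from the surface, fell 3.97-fold in female cells, from 51.3, 47.2 and 40.02 to 14.9, 7.6 and 11.1 (log2 -1.99, SE 0.28, adjusted p = 1.1e-05). In males it was 53.8, 15.5 and 51.7 in control and 14.6, 23.3 and 20.7 in knockout libraries, with male control B among the knockouts. Without the 2 libraries that stood apart, Lgr5 (log2 -1.06, SE 0.24, adjusted p = 0.013) and Rnf43 (-1.23, SE 0.23, adjusted p = 0.0064) were both lower in male knockout cells by limma. Its relative Znrf3 was slightly lower in females (297 to 319.5 against 257 to 274, log2 -0.23, SE 0.08) and lost this call without female control B (adjusted p = 0.058). Rspo3, an R-spondin, was at 1.01 to 15.95 in all libraries and had no call.

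All 4 secreted antagonists were higher in female knockout cells. Dkk1, which blocks Lrp5 and Lrp6, rose from 19.1, 10.98 and 14.4 to 51.7, 51.4 and 53.6 (log2 1.78, SE 0.25, limma adjusted p = 9.6e-06). Sfrp1, a decoy that binds Wnt proteins, rose from 266, 270.1 and 241 to 386, 394 and 405 (log2 0.61, SE 0.08, adjusted p = 2.1e-06). Sfrp2 rose from 258, 228 and 241 to 500.0, 459.6 and 509 (log2 1.01, SE 0.08, adjusted p = 3.7e-09). Sfrp5, which is expressed in the anterior visceral endoderm of the embryo, rose from 7.0, 8.8 and 11.1 to 29.8, 24.4 and 28.3 (log2 1.53, SE 0.30, adjusted p = 0.00033). No library of one female group reached into the other for any of the 4, as was so for 54.8% of all genes. The sum of endoderm genes moved in the same direction in these groups. With 1 limma fit over all 12 libraries, which takes its spread from the male libraries too, Dkk1 kept the call while Sfrp1, Sfrp2 and Sfrp5 lost it (adjusted p = 0.071, 0.17 and 0.16).

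Male antagonist levels depended on the library. Sfrp2 was at 280, 409 and 333 in male control, and at 472, 68.9 and 70.3 in male knockout libraries, so that knockout A lay above and B and C below every control. Sfrp5 was at 7.0, 25.9 and 7.2 in control and 7.3, 97.3 and 89.0 in knockout libraries, and Dkk1 at 43.9, 81.7 and 34.5 against 52.7, 151 and 124. The endoderm sum put male knockout A (960) below B and C and male control B (5517) above A and C, as did Sfrp5 and Dkk1. Sfrp2 had the reverse order in the knockouts. Sfrp1 was the antagonist called in males, at 219, 262 and 188 against 295, 674 and 655 (log2 1.19, SE 0.29, limma adjusted p = 0.038). Without the 2 libraries that stood apart, Sfrp2 was lower in male knockout (log2 -2.12, SE 0.13, adjusted p = 8.8e-05) while Dkk1 (1.79, SE 0.19), Sfrp1 (1.70, SE 0.10) and Sfrp5 (3.54, SE 0.25) were higher. The Sfrp2 changes differed between the sexes by -2.36 in all 12 libraries (SE 0.72, adjusted p = 0.032), and 16.1% of its exon bases lie in an opposite-strand gene, Gm16790.

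The destruction complex and β-catenin moved little in females. There 1 of 5 genes was called, against 50.1% of all genes. This was Apc, at 1688, 1722 and 1666 in control against 1485, 1526 and 1516 (log2 -0.16, SE 0.05, limma adjusted p = 0.013). Axin1, Gsk3a and Gsk3b had female log2 changes of 0.01, 0.03 and 0.01, each with an SE of 0.06 to 0.07. Ctnnb1 had the highest level per kilobase of the 40 genes in every group (1282 ± 38.5 SD in female control), and was at 6352 to 6743 in female control and 6863 to 7271 in female knockout libraries (log2 0.13, SE 0.05, adjusted p = 0.058). No gene of the complex was called in males, against 7.80% of all genes. The male groups did not overlap for Axin1, Ctnnb1 and Gsk3a, and for 26.5% of all genes. There Ctnnb1 was at 4924, 6869 and 4937 in control and 7191, 7185 and 7103 in knockout libraries, and was higher without the 2 libraries that stood apart (log2 0.53, SE 0.04, adjusted p = 0.00016), as were Axin1 (0.38, SE 0.07) and Gsk3a (0.47, SE 0.08), while Apc was lower (-0.19, SE 0.05, adjusted p = 0.023). Without these 2 libraries, 42.9% of all genes were called in males. Gsk3a shares 19.3% of its exon bases with opposite-strand genes.

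The TCF/LEF factors changed in both directions in female cells, with Tcf7 lower and the other 3 higher (50.1% of all genes were called). Tcf7l2 (chr19:55816300-56008144, mm9, plus strand) rose 2.16-fold, from 139, 144 and 143 to 314, 289 and 320.3 (log2 1.11, SE 0.09, limma adjusted p = 6.1e-09). Lef1 rose from 418, 488 and 418 to 616, 580.0 and 657 (log2 0.49, SE 0.08, adjusted p = 2.6e-05). Tcf7l1, the repressor of naive genes, was at 601 to 645 in control and 677 to 724 in knockout libraries (log2 0.18, SE 0.06, adjusted p = 0.020), a call that was lost without female control B (adjusted p = 0.080), without female knockout A (0.060) or without female knockout C (0.062). Tcf7 fell from 509, 567 and 486 to 414, 418 and 432 (log2 -0.30, SE 0.07, adjusted p = 0.0016).

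Tcf7 also fell in male cells, from 600.2, 644 and 649.6 to 418, 341 and 316 (log2 -0.83, SE 0.14, limma adjusted p = 0.0088), and the male fall was the larger by 0.52 (SE 0.15, adjusted p = 0.023). Tcf7l2 in males was at 239, 223 and 229.9 in control and 189, 366 and 337 in knockout libraries, with knockout A below and B and C above the controls, and its changes differed between the sexes by -0.80 (SE 0.26, adjusted p = 0.044). Lef1 was at 182, 376 and 178 in male control and 469, 253 and 254 in male knockout libraries, with control B and knockout A both away from their groups. Neither Tcf7l1, Tcf7l2 nor Lef1 was called in males, and all 3 were higher without these libraries (log2 0.45, 0.58 and 0.50).

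The feedback and target genes were mostly lower in female knockout cells, with 4 of 5 lower and no overlap for any of the 5. Over all genes, 24.7% were lower and 54.8% did not overlap between the female groups. Axin2, a direct target that rebuilds the destruction complex, was at 131, 134 and 137 in control and 91.7, 83.3 and 81.8 in knockout libraries (log2 -0.64, SE 0.12, limma adjusted p = 0.00017). Nkd1, which binds Dishevelled and dampens the signal, fell from 94.6, 87.8 and 74.5 to 38.4, 24.4 and 28.3 (log2 -1.48, SE 0.20, adjusted p = 5.2e-06), and Nkd2 from 82.5, 91.1 and 90.0 to 58.0, 56.4 and 52.6 (log2 -0.65, SE 0.15, adjusted p = 0.0011). Sp5, whose promoter window holds 2 TCF/LEF core motifs, fell from 25.2, 17.6 and 15.6 to 8.6, 5.0 and 5.1 (log2 -1.50, SE 0.35, adjusted p = 0.0015). Sp8 had 20.1, 13.2 and 13.3 against 7.8, 8.4 and 10.1 and was not called (log2 -0.74, SE 0.33, adjusted p = 0.074). Of the feedback genes counted under other roles, Notum and Dkk1 rose in the same cells and Rnf43 and Znrf3 fell.

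No feedback or target gene was called in male cells, where 7.80% of all genes were. Axin2 was at 82.8, 64.1 and 73.3 in male control and 159.9, 83.1 and 76.5 in male knockout libraries, so that knockout A reached the level of the female controls. Sp5 was at 2.0, 0 and 2.9 in male control and 29.2, 6.1 and 6.2 in male knockout libraries (log2 2.35, SE 0.76, limma adjusted p = 0.094). Sp8 was at 58.4 in knockout A, and at 1.0 and 5.2 in B and C. The changes of Sp5, Axin2 and Nkd1 differed between the sexes by 3.86 (SE 0.88), 1.10 (SE 0.32) and 1.17 (SE 0.36), with adjusted p-values of 0.0065, 0.026 and 0.034. The size of the Sp5 difference rests on 2, 0 and 2 reads in the male controls and was 2.43 with a pseudocount of 5 and 5.25 with one of 0.1. Without the 2 libraries that stood apart, male Axin2 changed by 0.03 (SE 0.16). By limma, 0 of the 5 genes were then called in males, as before, against 42.9% of all genes. By the same test, the difference between the sexes stayed called for Sp5 (2.57, SE 0.52) and Axin2 (0.67, SE 0.16). It was not called for Nkd1 (0.84, SE 0.33, adjusted p = 0.057).

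**Figure D3:**
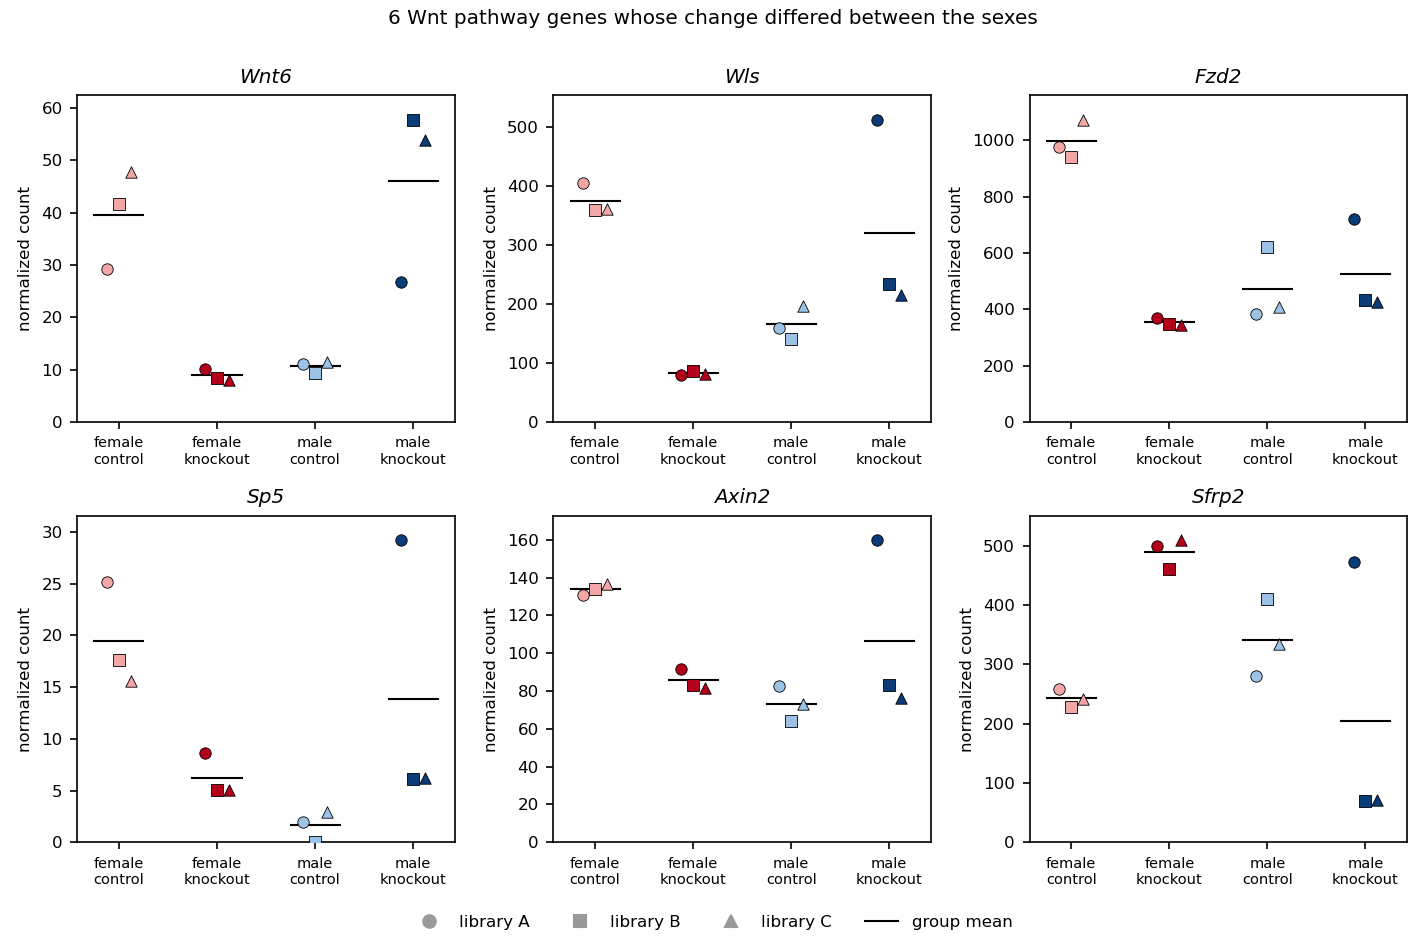
Normalized counts (vertical axes, from 0) of Wnt6, Wls, Fzd2, Sp5, Axin2 and Sfrp2 in each of the 12 libraries, with a bar at each group mean. Wnt6 was lower in all female knockouts and higher in all male knockouts than in their controls, and male knockout library A lay apart from B and C for Wls, Fzd2, Sp5, Axin2 and Sfrp2.

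Both controls were compared to see how the genes stood in cells with the intact floxed allele, a comparison that shares its libraries with those above. Of the 40 genes, 20 differed between female and male control cells (50.0%), against 21.9% of all 21854 genes (20 of 36 and 33.8% without genes of a mean below 10). In females 13 were higher, against 10.7% of all genes, and 7 lower, against 11.2%. Higher in female controls were Wnt6 (log2 1.78, SE 0.32), Wnt8a (2.31, SE 0.13), Wls (1.19, SE 0.13), Fzd1, Fzd2 (1.11, SE 0.16), Fzd4, Fzd8, Lrp5, Axin1, Gsk3a, Lef1, Axin2 (0.87, SE 0.15) and Sp5, whose difference was 1.89 to 4.49 by pseudocount, given 2, 0 and 2 reads in the male controls. Lower were Porcn, Lrp6, Lgr5, Dkk1 (-1.72, SE 0.36), Sfrp2, Tcf7 and Tcf7l2 (-0.70, SE 0.11). The controls differed in the marker lists too, with endoderm sums of 554 to 617 in females and 2998 to 5517 in males. In each fit that left out 1 library, 9 of the 20 kept the call. Leaving out male control B raised the count to 25 Wnt genes and that over all genes from 4786 to 10344.

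Genes of the pathway outside the 40 were counted from 9 lists that hold 115 measured genes. In females 24 were higher and 51 lower (65.2% called, against 50.1% of all genes), with a median log2 change of -0.26. In males 21 were higher and 2 lower (20.0%, against 7.80% of all genes), with a median of 0.20, or 46 higher and 22 lower without the 2 libraries that stood apart (59.1%, against 42.9%). Cytoplasmic components such as Dishevelled and casein kinases were lower for 15 and higher for 3 of 23 genes in females, and planar polarity genes lower for 8 and higher for 1 of 13. The other counts in females, to be read against the same 50.1% of all genes called, were 1 higher and 4 lower of 13 further ligands, 3 and 4 of 12 further receptors, 0 and 1 of 3 R-spondins, 2 and 5 of 13 further antagonists, 6 and 5 of 17 nuclear cofactors, 4 and 8 of 16 further targets, and 4 and 1 of 5 naive genes that Tcf7l1 represses.

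Wnt3, the ligand of the streak, had 154, 192 and 168 in female control and 18.02, 12.6 and 18.2 in female knockout libraries (log2 -3.33, SE 0.19, limma adjusted p = 8.1e-11). T, a direct Wnt target, had 82.5, 114 and 93.4 against 10.2, 5.9 and 18.2 (log2 -3.09, SE 0.30), and Fgf8 230.4, 288 and 230.1 against 25.1, 30.3 and 23.2 (log2 -3.20, SE 0.15). T is also in the list of 10 streak and mesoderm markers, of which 5 were higher and 2 lower in female knockout cells. Male controls were lower than female controls for T (13.96, 6.2 and 14.4) and Fgf8 (10.0, 26.9 and 7.2). Among the called genes of these 9 lists with a mean of at least 50, those that rose most in females were Tbx3 (log2 2.57, SE 0.09) and the naive genes Nr0b1 (2.26, SE 0.17) and Esrrb (2.05, SE 0.07), and Esrrb stood at 234 to 241 in female control against 936 to 1020.0 in female knockout libraries.

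By the same choice within these lists, the genes that rose most in males were Cdx1, Wnt7b (log2 2.72, SE 0.38) and Klf2 (2.21, SE 0.36). Cdx1 had 0, 1.03 and 2.87 in male control and 45.5, 155 and 157 in male knockout libraries (limma adjusted p = 0.0015), and its fold is not given because the control values are so low. Wnt7b had 83.8, 61.0 and 74.7 in control and 232, 735 and 667 in knockout libraries. Between the sexes, and by the same choice of genes with a mean of at least 50 within these lists, the male change exceeded the female change most for Fgf8 (4.62, SE 0.79), Wnt3 (3.03, SE 0.57) and Wnt9a (3.01, SE 0.24), and lay below it most for Kremen2, a Dkk receptor (-2.41, SE 0.47), Tle4, a corepressor of TCF factors (-1.53, SE 0.28), and Tbx3 (-0.81, SE 0.26). Wnt9a fell from 165, 181 and 144 to 32.9, 36.2 and 27.3 in females and was at 116, 89.9 and 126 in male control and 186, 181 and 169 in male knockout libraries. Between the controls, Fgf8, T and Shisa3 were higher in females (log2 4.20, 3.03 and 2.29) and Tbx3, Kremen2 and Tfcp2l1 lower (log2 -1.64, -0.85 and -0.80).

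**Figure D4:**
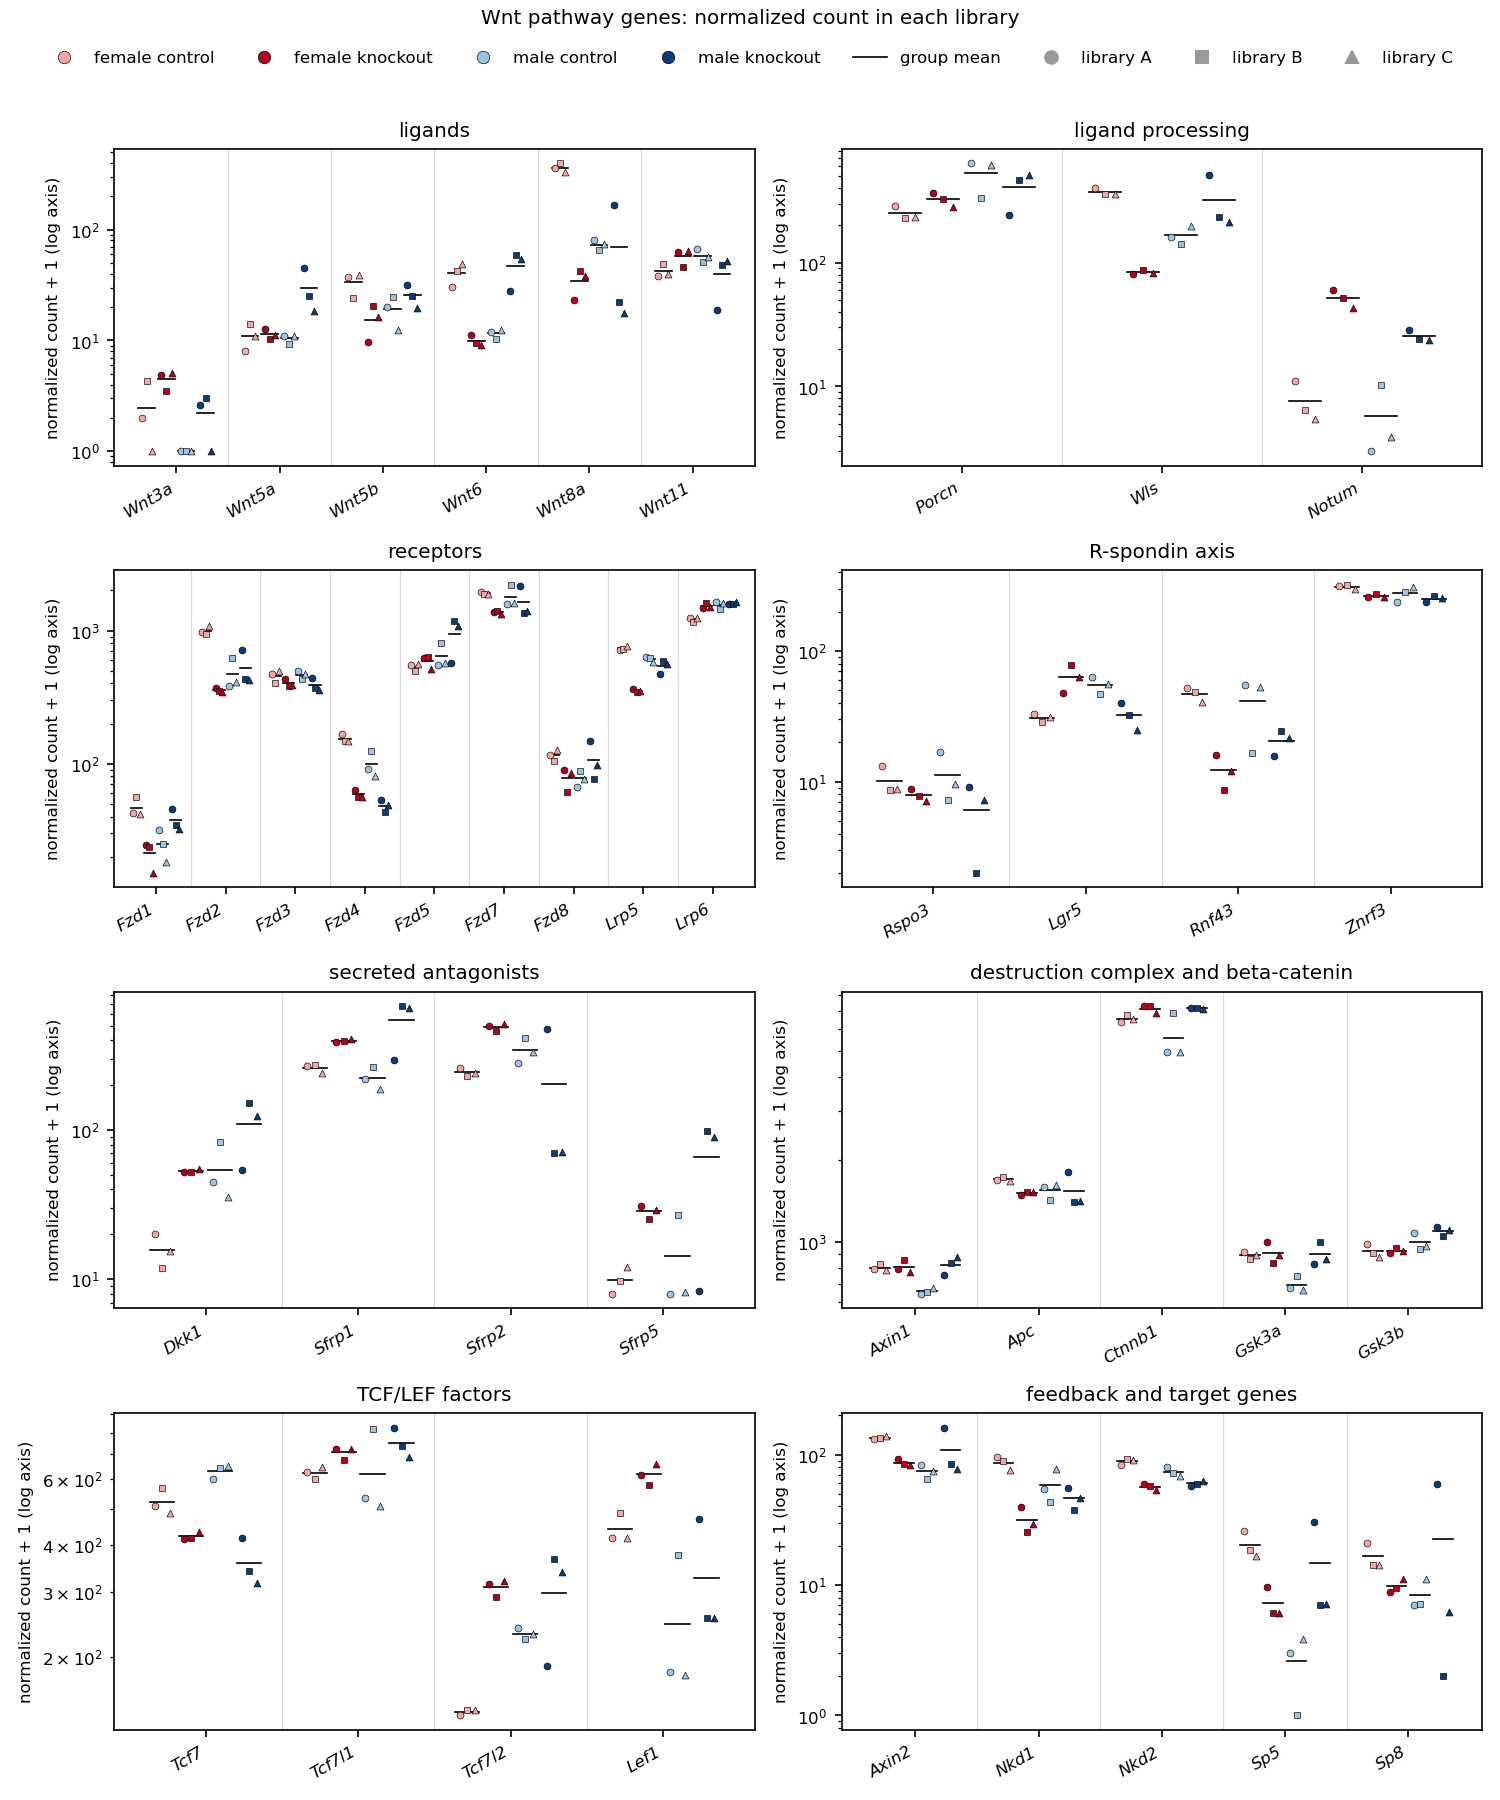
Normalized count plus 1 (log axis) of each of the 40 Wnt pathway genes in each of the 12 libraries, by role, with symbols for libraries A, B and C and a line at each group mean. The 4 secreted antagonists shown lay higher and the 5 feedback and target genes lower in all female knockouts than in all female controls. Female groups did not overlap for 54.8% of all genes. Male knockout library A departed more than 2-fold from the log2 mean of B and C for 13 genes.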

How the data were processed

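RNA of 12 EpiLC cultures, 3 per genotype, was depleted of ribosomal RNA, and single-end 50 bp reads were obtained. The authors used Tophat 2.1.0 to align reads to the mm9 build, allowed 1 mismatch at most, and kept unique alignments. Bowtie2 2.2.6.0, DESeq and Cuffdiff are also named in the submitters' processing notes. The annotation and the strand setting of counting are not given in the sources used here. In 1 table per sex the authors deposited a signal, the mean of the normalized counts (reads over size factor) of the 3 libraries of a genotype. The other deposited columns, a mean over both genotypes, fold changes, p-values and adjusted p-values of the authors' comparison, were not used.

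Whole reads of each library were solved from each mean up to 10000, and each gene searched had 1 solution (51 to 77 genes per genotype lay above). The solver was tested on simulated data. The recovered libraries carry no sample names and are known only by genotype. Deposited size factors lay within 0.996 to 1.01 times those recomputed over 12 libraries, so both tables share a scale. Reads copied by PCR are not independent, so limits from counts cover counting error only. P-values measure the spread between 3 ESC lines per genotype.

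Limma (3.58.1, R 4.3.3) was fitted with an intensity trend to log2(normalized count + 1), and p-values were adjusted by Benjamini-Hochberg over all genes with at least 1 read in the fit. With 3 libraries against 3, exact permutation tests cannot go below 0.10 and were not used. Levels per kilobase use the union of exons (GENCODE, mm9). Limma voom, pseudocounts of 0.1 and 5, a minimum mean of 10, recomputed and upper-quartile scaling, 1 fit over all libraries and fits without each library were alternatives. Of 9 lists of other pathway genes, up to 3 called genes with a mean of at least 50 are named per comparison and direction. The 40 genes, all lists and this rule were chosen with earlier results of these data known. Python 3.11.15, numpy 2.4.6, pandas 2.3.3 and matplotlib 3.10.9 were used.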

Additional observations from a re-analysis of the deposited data

Results flagged for a closer look

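The change upon loss of Kdm5c differed between male and female cells for 15 of the 40 Wnt pathway genes, by the interaction of sex and genotype in limma at an adjusted p under 0.05. Given as the male minus the female log2 change, the difference was 3.97 for Wnt6, 3.86 for Sp5, 3.01 for Wls, 2.58 for Wnt8a, 1.77 for Fzd1, 1.64 for Fzd2, 1.60 for Wnt5b, 1.17 for Nkd1, 1.10 for Axin2, 1.01 for Fzd8 and 0.87 for Lrp5. The value of Sp5 rests on 2, 0 and 2 reads in the male controls and was 2.43 with a pseudocount of 5 and 5.25 with one of 0.1, so its size depends on the pseudocount. It was -0.52 for Tcf7, -0.80 for Tcf7l2, -1.78 for Lgr5 and -2.36 for Sfrp2. Wnt6, Wls, Fzd1, Fzd2, Lrp5, Lgr5 and Sp5 passed in each of the 12 fits that left out 1 library. The others lost the call in 5 to 10 of these fits, with adjusted p-values of up to 0.060 to 0.11. Male knockout A set the size of several of these, since without it the difference was 1.55 for Wnt8a, -3.27 for Sfrp2 and -0.50 for Tcf7l2, each still past the threshold.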

How the results depend on the processing

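No paired analysis was possible because the recovered libraries carry no replicate numbers. The female count of 29 called Wnt genes was 28 to 30 with 1 library left out and 19 in 1 fit over all 12 libraries, in which the count over all genes fell from 9799 to 6493. Porcn, Fzd8, Znrf3, Sfrp1, Sfrp2, Sfrp5, Apc, Tcf7l1, Lef1 and Sp5 lost the female call there (adjusted p = 0.071 to 0.42). In males the 5 calls became 12 in the fit over all 12 libraries (4766 genes in all against 1705), 22 without male control B and male knockout A (9352 genes), and 0 to 14 with 1 library left out (333 to 4691 genes). None of the 5 male calls held in each of these: Tcf7 lost it without male control C (adjusted p = 0.069), Wnt6, Notum and Fzd4 without male control A or C or male knockout B or C (0.082 to 0.14), and Sfrp1 without each male library except knockout A (0.062 to 0.18) and under limma voom. The 15 differences between the sexes became 7 to 18 with 1 library left out and 25 without male control B and male knockout A, where the count over all genes was 10014 against 4675. The 20 differences between the controls became 10 to 25 with 1 library left out (2703 to 10344 genes against 4786). No called gene changed direction under any alternative, and 19 female, 7 between-sex and 9 control differences held in each of them. The cause of these shifts was not tested. Depth limits Wnt3a most, at 0 to 5 reads per library.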
